A study of Rattus norvegicus with 4 samples.

Results

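Expression of 10 genes for neuropeptides or their binding partners was followed in single nuclei of the rat ventral tegmental area (VTA), where dopamine neurons lie among GABA neurons, glutamate neurons and glia. The members were chosen by name, 10 of the 32883 genes in the deposited tables, and all 10 were found: Cck, Grp, Vip, Nts, Sst, Tac1, Cartpt, Gal, Crh and Crhbp. Tissue came from Sprague-Dawley rats of 90 to 120 days that had been in no earlier experiment, with no genetic change or treatment named in the labels. The 2 female and 2 male libraries each pooled 3 rats, so the library was the replicate, and the variation between single animals cannot be seen. Nuclei from frozen tissue were stained, sorted and prepared with 10x Genomics 3′ chemistry, and each captured transcript was counted once by its unique molecular identifier (UMI).

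Neuropeptides are cut from longer precursor proteins in the secretory pathway, packed into dense-core vesicles and released beside a fast transmitter such as glutamate, GABA or dopamine. They act mostly on G protein-coupled receptors, more slowly and over wider distances than the fast transmitters do. In the ventral midbrain, cholecystokinin and neurotensin are known as peptides carried by dopamine neurons. Crhbp differs from the other members in that its protein binds and sequesters corticotropin-releasing hormone, the product of Crh, and is not itself a transmitter.

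Neurons were sorted into 4 gates by the raw UMIs of a few defining genes. The dopamine gate took nuclei with at least 2 UMIs each of Th, which encodes the rate-limiting enzyme of dopamine synthesis, and Slc6a3, the dopamine transporter (323 nuclei, 74 to 93 per library). The Slc26a7/Gad2 gate took at least 2 UMIs each of the anion transporter gene Slc26a7 and of Gad2, which encodes a GABA-synthesizing enzyme (86 nuclei, 11 to 28 per library). The GABA gate took at least 2 UMIs of Gad1, another such enzyme (1167 nuclei, 271 to 311 per library). The glutamate gate took at least 2 UMIs of Slc17a6, a vesicular glutamate transporter gene, with none of Gad1 (1581 nuclei, 236 to 503 per library). A nucleus that passed several gates went to the first in this order. Such nuclei numbered 69 of 3157, among them 17 that passed both the dopamine and the Slc26a7/Gad2 gate and 35 that passed the Slc26a7/Gad2 and the glutamate gate. Subgates required at least 2 UMIs of Gata3 (119 nuclei), Lum (102) or Isl1 (48) within the GABA gate, and of C1ql1 (161), Lmx1a (333) or Sim1 (146) within the glutamate gate. Nuclei with several of the 3 subgate genes, 164 in the glutamate gate and 0 in the GABA gate, entered no subgate.

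Where 4 values follow each other below, they stand in the order female 1, female 2, male 1, male 2. The 4 libraries held 19714338 to 25824289 UMIs, and 20620 of 21606 barcodes were kept, with a median of 2381 to 3861 UMIs per nucleus. Any pair of libraries shared 4 to 9 barcodes, at most 0.248% of the smaller one. The gates selected deep nuclei, with median UMIs of 9114 in the dopamine gate, 8358 in the Slc26a7/Gad2 gate, 7490 in the GABA gate and 8260 in the glutamate gate. Oligodendrocytes, which should lack these peptides, served as background. These 8456 nuclei had at least 2 UMIs of Mog, under 2 of the astrocyte gene Gja1 and none of Th, Slc6a3, Slc26a7, Gad2, Gad1 and Slc17a6. Nuclei carrying such neuronal transcripts were thus left out, which can lower the background. The oligodendrocytes had a median of 2306 UMIs. Shares of nuclei with a UMI are therefore also given after each nucleus was thinned to 2000 UMIs. A further 4 dopamine genes (Slc18a2, Ddc, Drd2 and Slc10a4) were all detected in every library of the dopamine gate and summed to 2023 to 2480 CPM there. CPM are UMIs per 1000000 UMIs of the summed nuclei, so they are shares of the RNA counted in a gate. The same 4 genes summed to 801 to 1017 CPM in the Slc26a7/Gad2 gate, with 3 or 4 of them detected per library. They summed to 44.9 to 67.2 CPM in the GABA gate and 93.8 to 113 CPM in the glutamate gate. A set of 4 oligodendrocyte genes summed to 21.7 to 152 CPM over the 4 gates, against 5634 to 7703 CPM in oligodendrocytes. A set of 3 oligodendrocyte precursor genes, 1 or 2 of them detected per library, summed to 62.4 to 158 CPM in the Slc26a7/Gad2 gate. That range lay above those of the dopamine (6.11 to 33.9 CPM), GABA (17.5 to 56.3 CPM) and glutamate gates (24.9 to 57.2 CPM). The part of both sets in the results was not tested.

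The promoter sequences used here, from RefSeq, covered 8 members as windows of 300 bases that reach 250 bases before and 50 bases after the annotated start on build GRCr8. Those of Cck and Crh were not analysed here. The 3 motifs below, chosen after the sequences had been seen, were searched on both strands. The cyclic AMP response element TGACGTCA was present in 2 of the 8 members, Sst and Cartpt, and in 1.83% of 33469 windows of the same length. Its shorter form TGACG, which lies inside TGACGTCA, was present in 8 of 8 members and in 21.2% of windows. The letters TATAAA were present in 4 of 8 members (Vip, Grp, Crhbp and Gal) and in 14.2% of windows. The promoters of Sst and Cartpt are shown because they hold the full element, and those of Nts and Crhbp because Nts was high in the Lum subgate and Crhbp in the Slc26a7/Gad2 gate below. The stretches end at the annotated start, except in Sst, where 10 bases after it are included. Capitals mark TGACG and TGACGTCA on either strand.
Sst, chr11:90461296-90461555, plus strand: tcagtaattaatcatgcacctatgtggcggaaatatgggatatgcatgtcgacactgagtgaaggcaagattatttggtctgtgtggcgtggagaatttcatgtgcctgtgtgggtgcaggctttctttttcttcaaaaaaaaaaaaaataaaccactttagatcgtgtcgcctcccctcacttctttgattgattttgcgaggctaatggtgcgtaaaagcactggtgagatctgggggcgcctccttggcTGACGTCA
Cartpt, chr2:32991236-32991485, minus strand: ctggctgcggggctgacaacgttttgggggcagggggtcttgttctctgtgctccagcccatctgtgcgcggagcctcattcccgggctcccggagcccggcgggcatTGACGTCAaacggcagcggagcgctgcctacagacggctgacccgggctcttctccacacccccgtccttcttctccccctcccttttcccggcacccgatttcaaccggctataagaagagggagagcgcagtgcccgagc
Nts, chr7:39460889-39461138, minus strand: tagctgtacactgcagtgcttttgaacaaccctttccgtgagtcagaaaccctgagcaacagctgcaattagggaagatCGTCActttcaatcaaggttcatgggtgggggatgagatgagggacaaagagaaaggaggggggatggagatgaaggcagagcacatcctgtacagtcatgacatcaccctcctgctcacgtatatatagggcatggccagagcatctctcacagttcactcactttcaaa
Crhbp, chr2:28439447-28439696, minus strand: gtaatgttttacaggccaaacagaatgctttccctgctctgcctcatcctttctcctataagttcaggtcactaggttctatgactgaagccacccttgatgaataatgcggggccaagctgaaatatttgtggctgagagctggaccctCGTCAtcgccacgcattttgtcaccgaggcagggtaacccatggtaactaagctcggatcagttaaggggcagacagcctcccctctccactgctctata
In Sst the element lay 3 to 10 bases after the annotated start, and in Cartpt it lay 142 to 135 bases before it. In Nts and Crhbp the capitals CGTCA are TGACG on the opposite strand, 171 to 167 bases and 100 to 96 bases before the start. These matches describe the letters in the windows, and no binding was measured here.

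Counts were summed per library and gate and compared with edgeR's quasi-likelihood test with library as a block and Benjamini-Hochberg adjustment over all genes tested. The shares of all genes given beside the members leave out the genes that define gates and subgates, which left 11519 genes between gates. Of the members, 9 passed the filter on low counts and Gal did not. Between the dopamine and GABA gates, 8 of these 9 differed (5 higher and 3 lower in dopamine neurons), where 31.8% of all genes tested differed. Between the dopamine and glutamate gates the count was likewise 8 of 9 (5 higher, 3 lower), against 27% of all genes. Between the dopamine and Slc26a7/Gad2 gates it was 4 of 9 (3 higher, 1 lower), against 15.6% of all genes. The Slc26a7/Gad2 gate differed from the GABA gate in 5 of 9 members (2 higher, 3 lower; 10.1% of all genes) and from the glutamate gate in 5 of 9 (2 higher, 3 lower; 8.79%). The GABA and glutamate gates differed in 6 of 9 (2 higher in GABA, 4 lower), against 13.3%. The median log2 difference of the tested members was 0.88 for dopamine minus GABA, 1.11 for dopamine minus glutamate and -0.70 for GABA minus glutamate. Members at 0 UMIs in the Slc26a7/Gad2 gate were then set to a floor of 3 counts there. Where the other gate did not exceed that floor, the difference was set to 0. The median was 1.18 for dopamine minus Slc26a7/Gad2. On the same basis it was -1.76 for Slc26a7/Gad2 minus GABA and -2.15 for Slc26a7/Gad2 minus glutamate. Over all genes the 6 medians lay between -0.05 and 0.04.

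**Figure D1:**
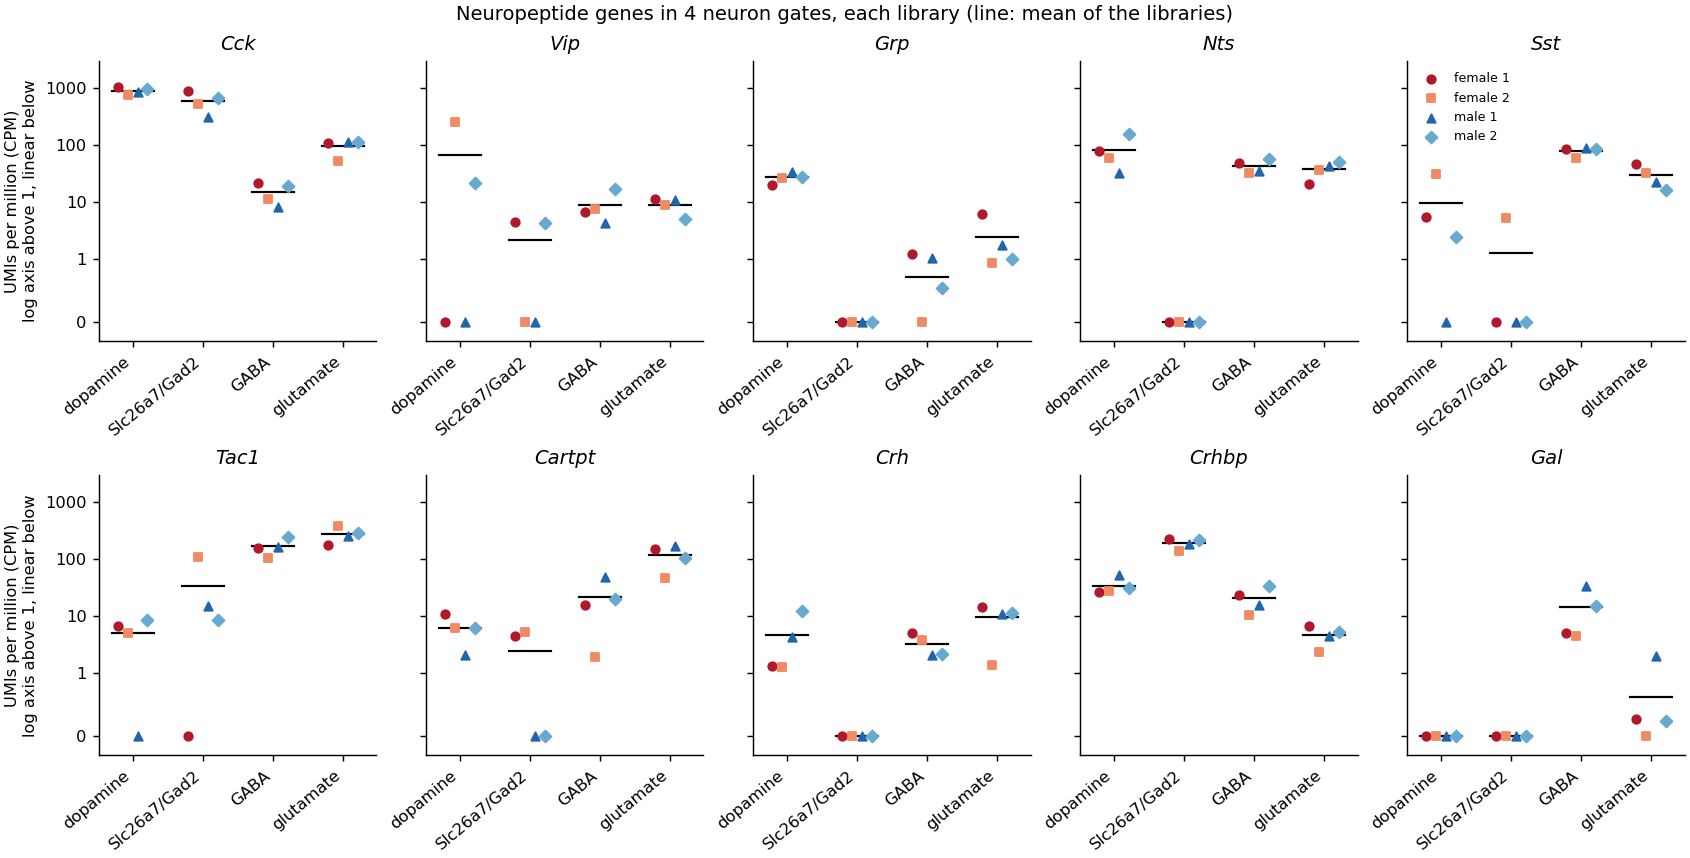
Level of each of the 10 members in the 4 neuron gates (vertical axis: UMIs in CPM, log above 1 and linear below), with 1 point per library and a line at the mean of the libraries. The Cck points of the dopamine gate lie between 763 and 1051 CPM, and the Crhbp points of the Slc26a7/Gad2 gate lie between 141 and 227 CPM, above every point of the other gates.

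Cck (ENSRNOG00000019321) encodes the precursor of cholecystokinin. It was high in the dopamine and Slc26a7/Gad2 gates and low in GABA neurons. In dopamine neurons it stood at 1051, 763, 865 and 963 CPM (910.5 ± 124, SD, n = 4). In the Slc26a7/Gad2 gate it stood at 878, 537, 317 and 663 CPM (599 ± 235). The dopamine value was the higher one in each of the 4 libraries, although the ranges overlapped, and the log2 difference was 0.64 ± 0.15 (SE, edgeR adjusted p = 0.00314). Without the library block this difference was 0.60 and no longer passed (edgeR adjusted p = 0.0854). In glutamate neurons Cck stood at 111, 53.0, 112 and 113 CPM. GABA neurons held it at 21.3, 11.4, 8.14 and 19.3 CPM. No library of either gate reached the lowest dopamine or Slc26a7/Gad2 library. Cck was higher in dopamine than in GABA neurons by 6.03 ± 0.18 on the log2 scale (edgeR adjusted p = 1.25e-20) and higher than in glutamate neurons by 3.29 ± 0.13 (edgeR adjusted p = 1.57e-17). It was also higher in the Slc26a7/Gad2 gate than in GABA neurons, by 5.39 ± 0.21 (edgeR adjusted p = 4.02e-17).

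The share of nuclei with a Cck UMI was 80.0% ± 2.76 in the dopamine gate and 88.9% ± 4.64 in the Slc26a7/Gad2 gate (SD over 4 libraries). It was 27.0% ± 7.94 in glutamate neurons, 6.34% ± 1.67 in GABA neurons and 2.34% ± 0.290 in oligodendrocytes. At 2000 UMIs per nucleus these shares were 62.5%, 58.7%, 12.9%, 2.23% and 1.66% in that order. The GABA share therefore stood close to the oligodendrocyte background, and the glutamate share stood above it. At least 10 Cck UMIs were counted in 123 of 323 dopamine nuclei and in 20 of 1581 glutamate nuclei. Within the glutamate gate, no Cck difference between the C1ql1, Lmx1a and Sim1 subgates passed the test (edgeR adjusted p of 0.0570, 0.386 and 0.578). Of all Cck UMIs in kept nuclei, 37.9% lay in the dopamine gate, 18.8% in the glutamate gate and 35.2% in no gate.

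Grp (ENSRNOG00000016999) encodes gastrin-releasing peptide, a bombesin-like peptide. Most of its few UMIs came from dopamine neurons, where it stood at 20.2, 26.4, 33.9 and 28.1 CPM (27.2 ± 5.64, SD, n = 4). In glutamate neurons it stood at 6.18, 0.939, 1.77 and 1.00 CPM. GABA neurons held Grp at 1.25, 0, 1.06 and 0.536 CPM. The dopamine values overlapped with neither gate, and Grp was higher there by 3.54 ± 0.39 than in glutamate neurons (log2, edgeR adjusted p = 5.54e-08) and by 5.23 ± 0.51 than in GABA neurons (edgeR adjusted p = 6.14e-09). No Grp UMI was found in the 86 nuclei of the Slc26a7/Gad2 gate, which allows a share of up to 3.49% of nuclei, and against a floor of 3 counts over that gate the dopamine level was at least 7.17-fold higher. A Grp UMI was found in 11.9% ± 2.68 of dopamine nuclei (4.47% at 2000 UMIs) and in 0.0210% of oligodendrocytes (0.0260%). The dopamine gate held 55.8% of all Grp UMIs, 26.8% in female 1 and 63.9% to 75.0% in the other 3 libraries.

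Within the dopamine gate, Cck and Grp were mostly found in different nuclei. Of the 323 nuclei, 248 had Cck and no Grp, 29 had Grp and no Cck, 10 had both and 36 had neither. Grp was found in 3.23%, 6.15%, 5.08% and 1.39% of the nuclei with Cck. Among the nuclei without Cck it was found in 33.3%, 43.8%, 37.5% and 57.1%. The shares did not overlap between the 2 sets of nuclei, and the median depth was alike, at 9081 UMIs with Cck and 9326 without. At 2000 UMIs per nucleus the mean shares were 1.00% ± 0.427 with Cck and 10.2% ± 2.34 without (SD over 4 libraries). The 39 nuclei with Grp held 34 of the 2990 Cck UMIs of the gate, with a median of 0, against a median of 9 in nuclei with Cck alone.

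**Figure D2:**
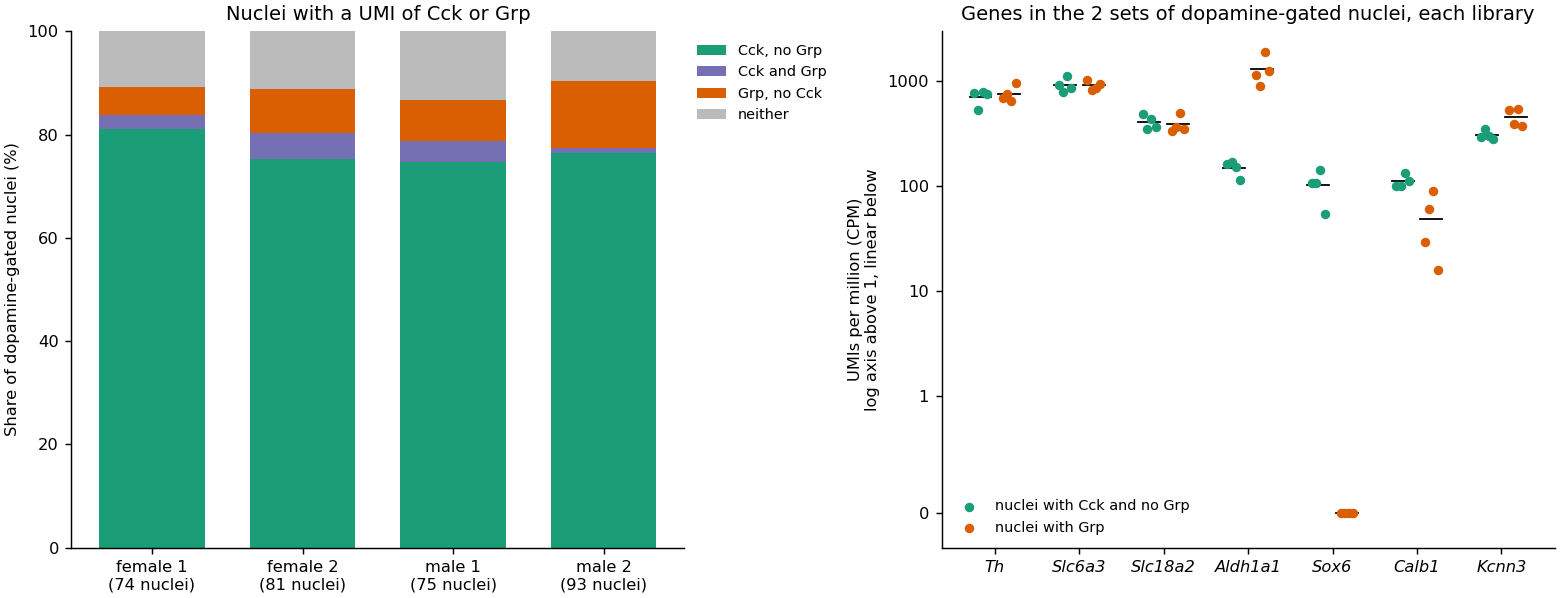
Left, share of the dopamine-gated nuclei of each library (percent) with Cck and no Grp, both, Grp and no Cck, or neither. Right, levels of 7 genes (CPM, log above 1 and linear below) in nuclei with Cck and no Grp and in nuclei with Grp, with 1 point per library and a line at the mean, where Aldh1a1 lies at 904 to 1888 CPM with Grp and at 115 to 170.4 CPM without, and Sox6 at 0 with Grp.

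The nuclei with Grp carried the dopamine genes at levels like those of nuclei with Cck and no Grp. Th averaged 764 ± 139 CPM against 714 ± 122, and Slc6a3 averaged 918 ± 95.8 against 925 ± 137 (SD, n = 4 libraries). A pair of genes used to divide midbrain dopamine neurons stood apart between these nuclei, in opposite directions. Aldh1a1, which encodes a retinaldehyde dehydrogenase, stood at 1142, 904, 1888 and 1251 CPM in the nuclei with Grp, and at 163, 170.4, 153 and 115 CPM in those with Cck and no Grp. In each library the level was higher in the nuclei with Grp, and the ranges did not overlap. Sox6, a transcription factor gene, was at 0 UMIs in the 39 nuclei with Grp and at 107, 108, 141 and 54.0 CPM in the nuclei with Cck and no Grp, at least 14.6-fold higher against a floor of 3 counts. Calb1, which encodes the calcium-binding protein calbindin, stood at 29.3, 60.9, 90.2 and 15.7 CPM with Grp and at 102, 99.7, 134 and 111 CPM with Cck and no Grp, again without overlap. These comparison genes were chosen after the split had been seen, and no test was made. The 36 nuclei with neither peptide were mixed, with Aldh1a1 at 215 to 927 CPM and Sox6 at 13.4 to 364 CPM.

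Nts (ENSRNOG00000004179) encodes the common precursor of neurotensin and neuromedin N. It was present in dopamine, GABA and glutamate neurons and was at 0 UMIs in the Slc26a7/Gad2 gate, which allows a share of up to 3.49% of such nuclei. In dopamine neurons it stood at 78.2, 60.4, 32.9 and 155 CPM (81.7 ± 52.4, SD, n = 4). In GABA neurons it stood at 48.0, 32.8, 35.4 and 57.9 CPM, and in glutamate neurons at 21.0, 36.1, 43.9 and 51.4 CPM. The 3 ranges overlapped, with male 1 lowest in the dopamine gate and male 2 highest in all 3 gates. Nts was higher in dopamine than in glutamate neurons by 1.11 ± 0.23 (log2, edgeR adjusted p = 0.000489) and than in GABA neurons by 0.91 ± 0.23 (edgeR adjusted p = 0.00365). The difference from GABA neurons was lost without male 2 (0.60, edgeR adjusted p = 0.127). Against a floor of 3 counts in the Slc26a7/Gad2 gate, Nts was at least 20.8-fold higher in dopamine, 10.9-fold higher in GABA and 10.1-fold higher in glutamate neurons. Without male 2 the limits were 10.1-fold, 7.02-fold and 6.23-fold. Nts was carried by a minority of dopamine nuclei at a high level, with 38 nuclei holding 264 UMIs and 11 of them holding at least 10. A Nts UMI was found in 11.6% ± 5.05 of dopamine, 13.7% ± 1.12 of GABA and 7.61% ± 1.56 of glutamate nuclei (6.86%, 6.59% and 3.71% at 2000 UMIs). With gates at 1 UMI, the GABA and glutamate differences from the Slc26a7/Gad2 gate no longer passed (edgeR adjusted p of 0.153 and 0.267).

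Within the GABA gate, Nts was highest in the Lum subgate. Lum encodes lumican, a matrix proteoglycan, and defined this subgate only by its UMIs. Nts stood at 268, 173, 218 and 288 CPM in the Lum subgate (237 ± 51.7, SD, n = 4). In the Gata3 subgate it stood at 27.5, 2.16, 0 and 13 CPM. The ranges were far apart, and the log2 difference of Gata3 minus Lum was -4.72 ± 0.48 (edgeR adjusted p = 2.37e-09). A Nts UMI was found in 69.5% ± 6.61 of Lum nuclei and 4.91% ± 4.50 of Gata3 nuclei, against 0.409% of oligodendrocytes. At 2000 UMIs the shares were 35.0%, 1.64% and 0.182%. The Isl1 subgate held 2 Nts UMIs in 48 nuclei, 48.9-fold below the Lum subgate (95% Poisson interval 13.5 to 404, counting error only). In this comparison 2 of 8 members passed (0 higher, 2 lower in Gata3), against 15.8% of 9157 genes, and Gal was the other. The members' median was 0.21 and that of all genes 0.03. Grp and Crh did not pass the filter in the subgates. The Isl1 subgate reached 10 nuclei in male 1 only and was not tested. Its male 1 sum stayed in the fit of all subgates, and a gene could pass the filter through that sum alone. Gal was high there, with 74 UMIs in 1 nucleus. In glutamate neurons Nts stood at 18.2, 16.7, 0 and 11.4 CPM in C1ql1 nuclei and at 34.2, 93.2, 34.8 and 58.5 CPM in Lmx1a nuclei, without overlap (-2.15 ± 0.50, edgeR adjusted p = 0.00531; DESeq2 adjusted p = 0.0651).

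**Figure D3:**
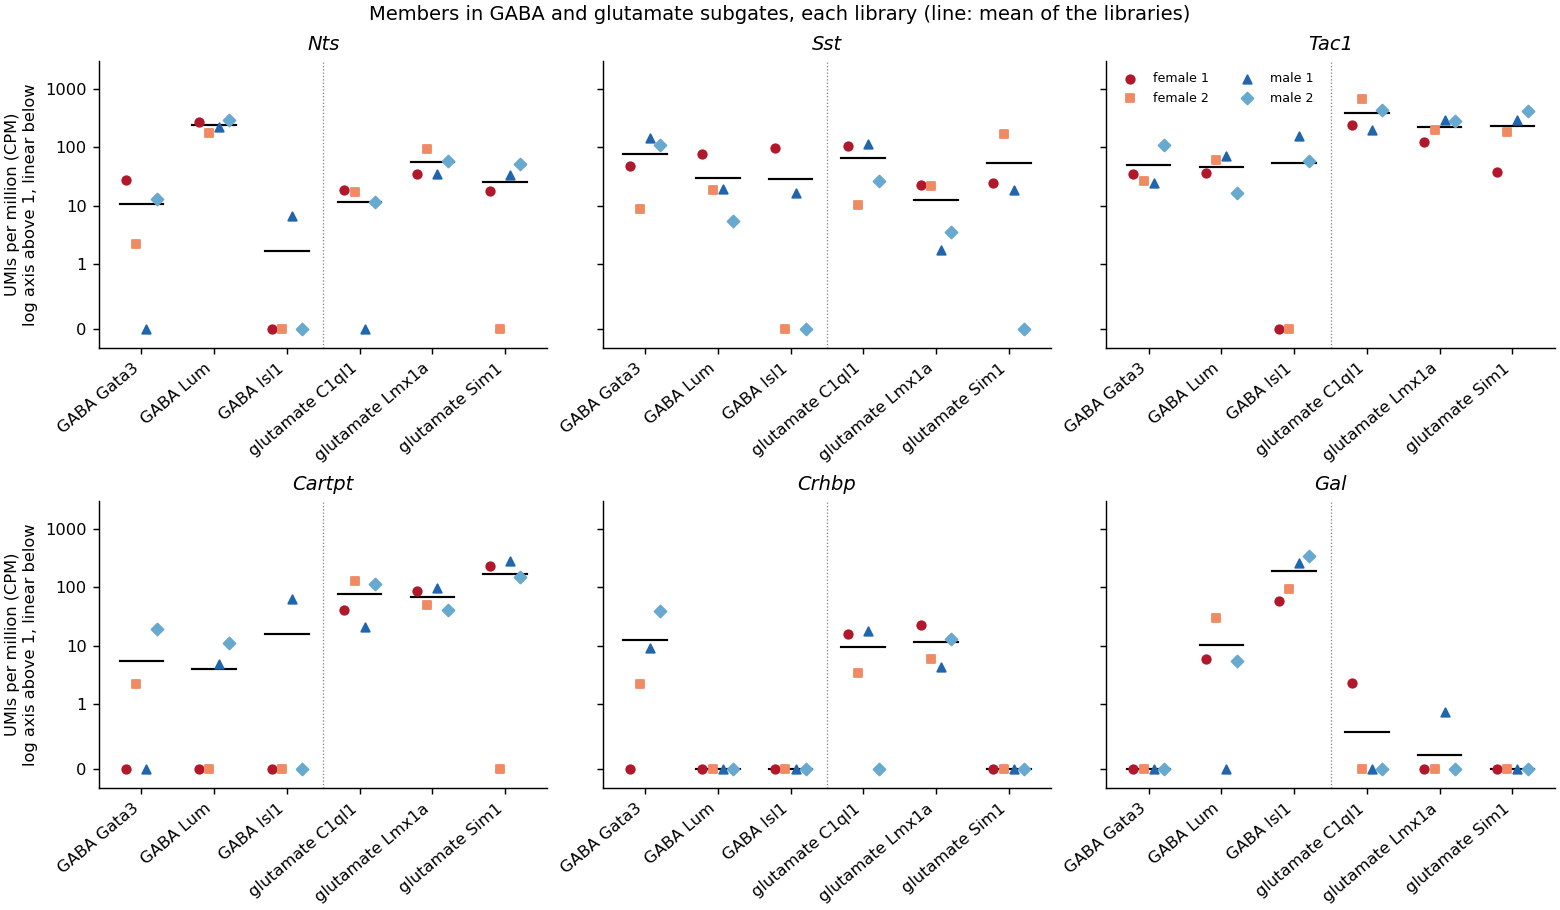
Level of Nts, Sst, Tac1, Cartpt, Crhbp and Gal (vertical axis: CPM, log above 1 and linear below) in the 3 subgates of the GABA gate and the 3 of the glutamate gate, with 1 point per library and a line at the mean. Nts lies between 173 and 288 CPM in the Lum subgate and at or below 27.5 CPM in the Gata3 subgate, and the Cartpt points of the Sim1 subgate spread from 0 to 285 CPM.

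Crhbp (ENSRNOG00000017890), the gene of the binding protein for corticotropin-releasing hormone, was high in the Slc26a7/Gad2 gate. There it stood at 227, 141, 189 and 221 CPM (194 ± 39.6, SD, n = 4). In dopamine neurons it stood at 27.0, 27.7, 52.0 and 31.8 CPM. In GABA neurons it stood at 23.4, 10.7, 15.9 and 33.8 CPM, and in glutamate neurons at 6.72, 2.35, 4.43 and 5.27 CPM. The Slc26a7/Gad2 range lay above all others without overlap, and the dopamine and GABA ranges overlapped. Crhbp was higher in the Slc26a7/Gad2 gate than in glutamate neurons by 5.36 ± 0.27 (log2, edgeR adjusted p = 5.20e-15) and than in GABA neurons by 3.28 ± 0.23 (edgeR adjusted p = 7.36e-12). Dopamine neurons were lower than the Slc26a7/Gad2 gate, at -2.40 ± 0.24 (edgeR adjusted p = 7.61e-09). The dopamine minus GABA difference of 0.88 ± 0.23 (edgeR adjusted p = 0.00366) was lost without male 1 (0.48, edgeR adjusted p = 0.177). It was also lost with nuclei of several gates left out (0.02, edgeR adjusted p = 0.969) and with gates at 3 UMIs (0.02, edgeR adjusted p = 0.970). A Crhbp UMI was found in 75.8% ± 7.87 of Slc26a7/Gad2 nuclei, 15.2% of dopamine, 7.29% of GABA and 2.59% of glutamate nuclei, and in 0.0928% of oligodendrocytes. At 2000 UMIs these shares were 34.4%, 6.34%, 3.38%, 0.890% and 0.0705%.

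Crh (ENSRNOG00000012703), which encodes corticotropin-releasing hormone, the stress-axis peptide bound by that protein, was sparse. It stood at 14.5, 1.41, 11.1 and 11.3 CPM in the glutamate gate (9.57 ± 5.67, SD, n = 4). In dopamine neurons it stood at 1.35, 1.26, 4.24 and 12.2 CPM, and in GABA neurons at 5.01, 3.81, 2.12 and 2.14 CPM. Female 2 was low in the glutamate gate, where only 3 of its 236 nuclei had Crh, and all 3 ranges overlapped. GABA minus glutamate was -1.48 ± 0.39 (log2, edgeR adjusted p = 0.00996), a call lost without female 1, male 1 or male 2 in turn (edgeR adjusted p of 0.0510, 0.120 and 0.0628). DESeq2 did not make it either (adjusted p = 0.299). A Crh UMI was found in 4.64% ± 2.32 of glutamate, 2.12% of dopamine and 1.71% of GABA nuclei, against 0.0522% of oligodendrocytes (1.84%, 0.759%, 0.670% and 0.0539% at 2000 UMIs). The Slc26a7/Gad2 gate, where Crhbp was highest, held 0 Crh UMIs. Its difference from glutamate neurons did not pass (edgeR adjusted p = 0.0849, DESeq2 adjusted p = 0.0918). In the Sim1 subgate Crh stood at 24.2, 0, 25.1 and 8.02 CPM, and in the C1ql1 subgate it was at 0 in 161 nuclei, at least 8.74-fold lower against a floor of 3 counts (5.30-fold without female 1 and 4.90-fold without male 1). Crh was not tested between subgates. Crhbp showed the reverse in the glutamate subgates, with 0 UMIs in 146 Sim1 nuclei and at least 5.72-fold higher levels in C1ql1 and 5.73-fold in Lmx1a nuclei. Without female 1 these limits were 3.19-fold and 3.10-fold, and without male 1 the former was 2.54-fold. The Crhbp differences passed in edgeR (adjusted p of 0.0343 and 0.0271) and were lost without female 1 (edgeR adjusted p of 0.149 and 0.187).

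Tac1 (ENSRNOG00000007374) encodes the precursor of substance P and neurokinin A. It was high in glutamate and GABA neurons and near background in dopamine neurons. In glutamate neurons it stood at 181, 381, 254 and 294 CPM (278 ± 83.3, SD, n = 4). Tac1 in GABA neurons stood at 159, 104, 165 and 248 CPM. In dopamine neurons it stood at 6.74, 5.03, 0 and 8.55 CPM, below every library of both gates, while the GABA and glutamate ranges overlapped. Tac1 was lower in dopamine than in glutamate neurons, at a log2 difference of -5.73 ± 0.42 (edgeR adjusted p = 7.25e-12), and lower than in GABA neurons, at -5.04 ± 0.46 (edgeR adjusted p = 5.21e-10). The GABA minus glutamate difference of -0.70 ± 0.18 passed in edgeR (adjusted p = 0.00698) and not in DESeq2 (adjusted p = 0.834). Tac1 in the Slc26a7/Gad2 gate stood at 0, 109, 15.1 and 8.66 CPM, and 21 of its 25 Tac1 UMIs came from a single nucleus of female 2. This gate was lower than GABA neurons, at -2.39 ± 0.51 (edgeR adjusted p = 0.00142), a call lost without male 2 (edgeR adjusted p = 0.0526), with gates at 1 UMI (edgeR adjusted p = 0.362) and with nuclei of several gates left out (edgeR adjusted p = 0.108). A Tac1 UMI was found in 30.1% ± 2.18 of glutamate, 19.6% ± 3.52 of GABA and 3.59% of dopamine nuclei, against 1.46% of oligodendrocytes (19.4%, 12.4%, 0.793% and 1.04% at 2000 UMIs). All 3 glutamate subgates carried it, at a mean of 390.3 CPM in C1ql1, 221 in Lmx1a and 232 in Sim1 nuclei, and no difference among them passed the test (edgeR adjusted p of 0.0867, 0.143 and 0.977).

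Sst (ENSRNOG00000001837) encodes somatostatin, an inhibitory peptide carried by GABA neurons in many brain regions. In GABA neurons it stood at 84.8, 60.6, 88.8 and 86.3 CPM (80.1 ± 13.1, SD, n = 4). In glutamate neurons it stood at 46.8, 32.4, 22.4 and 16.3 CPM, and in dopamine neurons at 5.39, 31.4, 0 and 2.44 CPM. The GABA values lay above those of the other gates without overlap. Sst was higher in GABA than in glutamate neurons by 1.5 ± 0.22 (log2, edgeR adjusted p = 8.24e-06; DESeq2 adjusted p = 0.263). Dopamine minus GABA was -3.01 ± 0.40 (edgeR adjusted p = 6.30e-07). Dopamine minus glutamate was -1.51 ± 0.47 (edgeR adjusted p = 0.0161), a call lost without female 1 or male 1 (edgeR adjusted p of 0.159 and 0.0743). It turned to 0.21 with gates at 1 UMI (edgeR adjusted p = 0.806). A single Sst UMI came from the Slc26a7/Gad2 gate, 62.1-fold below GABA neurons (95% Poisson interval 11.2 to 2455, counting error only). Slc26a7/Gad2 minus GABA was -5.90 ± 1.12 (edgeR adjusted p = 0.000351). With gates at 1 UMI it was -0.95 and no longer passed (edgeR adjusted p = 0.389). Sst marked 15.4% ± 0.679 of GABA nuclei (8.64% at 2000 UMIs), against 0.470% of oligodendrocytes (0.304%). The GABA subgates did not hold most of it. The Gata3, Lum and Isl1 nuclei with Sst numbered 9, 6 and 4, of 180 in the whole GABA gate. Within the glutamate gate, C1ql1 nuclei held Sst at 107, 10.0, 116 and 26.6 CPM and Lmx1a nuclei at 22.8, 21.3, 1.74 and 3.49 CPM, the higher level in C1ql1 nuclei in every library but female 2. That difference of 2.71 ± 0.71 (edgeR adjusted p = 0.0124) was lost without female 1 or male 1 (edgeR adjusted p of 0.0659 and 0.297).

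Cartpt (ENSRNOG00000017712) encodes the precursor of cocaine- and amphetamine-regulated transcript peptides. It was foremost a gene of glutamate neurons, at 150.2, 46.5, 173 and 103 CPM (118 ± 55.8, SD, n = 4). Cartpt in GABA neurons stood at 15.5, 1.90, 48.5 and 20.4 CPM, and in dopamine neurons at 10.8, 6.29, 2.12 and 6.11 CPM. Female 2 was the lowest library in both the glutamate and the GABA gate, and only male 1 of the GABA gate reached the glutamate range. In the GABA gate, 94 of 217 Cartpt UMIs came from 1 nucleus. Cartpt was lower in GABA than in glutamate neurons, at a log2 difference of -2.50 ± 0.19 (edgeR adjusted p = 5.30e-11), and lower in dopamine than in glutamate neurons, at -4.24 ± 0.35 (edgeR adjusted p = 5.56e-11). Dopamine minus GABA was -1.75 ± 0.47 (edgeR adjusted p = 0.00495), and -0.54 without male 1, where it no longer passed (edgeR adjusted p = 0.418). Only 2 UMIs came from the Slc26a7/Gad2 gate, 50.2-fold below the glutamate gate (95% Poisson interval 13.9 to 415, counting error only). A Cartpt UMI was found in 21.4% ± 8.10 of glutamate nuclei (12.2% at 2000 UMIs) and in 1.31% of oligodendrocytes (0.884%).

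Within the glutamate gate, Cartpt and Crh were highest on average in the Sim1 subgate, defined by a transcription factor gene. Cartpt stood there at 231, 0, 285 and 152 CPM. The Sim1 subgate of female 2 held 12 nuclei, against 41 to 48 in the other libraries. In the C1ql1 subgate Cartpt stood at 40.9, 127, 20.5 and 114 CPM, and in the Lmx1a subgate at 86.2, 50.5, 98.4 and 41.0 CPM. The Sim1 values lay above those of both other subgates in each library except female 2. C1ql1 minus Sim1 was -1.49 ± 0.41 (log2, edgeR adjusted p = 0.0131) and Lmx1a minus Sim1 was -1.52 ± 0.34 (edgeR adjusted p = 0.00316). Both calls were lost without male 1 (edgeR adjusted p of 0.393 and 0.0725), and the former also without female 1 (edgeR adjusted p = 0.239). DESeq2 made neither (adjusted p of 0.670 and 0.841). Of 8 members tested, 3 differed between C1ql1 and Lmx1a (1 higher, 2 lower; 8.2% of all genes). Another 3 differed between C1ql1 and Sim1 (1 higher, 2 lower; 10.6%), and 2 between Lmx1a and Sim1 (1 higher, 1 lower; 6.89%). DESeq2 called 0 in each of these comparisons, where edgeR's unadjusted p was under 0.05 for 5, 5 and 2 members. The members' medians were -4.40e-05, 0.16 and 0.49, against -0.01 to 0.01 over all genes.

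Gal (ENSRNOG00000015156) encodes galanin. It was found in few nuclei, with 54.6% of its UMIs in 34 nuclei of the GABA gate, at 5.01, 4.57, 34.3 and 15.0 CPM (14.7 ± 13.9, SD, n = 4). In glutamate neurons it stood at 0.269, 0, 2.00 and 0.251 CPM. Both male libraries lay above both female ones in the GABA gate. The dopamine gate held 0 Gal UMIs in 323 nuclei, which allows a share of up to 0.929%, and the GABA level was at least 16.9-fold higher against a floor of 3 counts, or 5.93-fold without male 1. The 86 Slc26a7/Gad2 nuclei held 0 as well, which allows up to 3.49%. A Gal UMI was found in 2.92% ± 0.818 of GABA nuclei (1.34% at 2000 UMIs) and in 0.0692% of oligodendrocytes (0.0485%). Within the GABA gate, the Isl1 subgate held 101 of the 149 Gal UMIs in 13 of its 48 nuclei, 74 of them in a single nucleus of male 1. These Isl1 nuclei, 2 to 35 per library, also held 159 to 828 CPM of the 4 dopamine genes, with 1 or 2 of them detected per library. A set of 3 vascular genes summed to 0 to 285 CPM there, with 0 to 2 detected per library, against at most 19.2 CPM in the other subgates. The part of both sets in the Gal value was not tested. The Gata3 subgate held 0 UMIs in 119 nuclei, and the Lum subgate at least 4.99-fold more, at 5.95, 30.0, 0 and 5.53 CPM. That difference passed in edgeR (adjusted p = 0.00701) and was lost without female 2 (edgeR adjusted p = 0.307), where 2 UMIs remained in Lum nuclei, and in DESeq2 (adjusted p = 0.739). The fit also held the Isl1 sum of male 1, through which a gene could pass the filter on low counts.

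Vip (ENSRNOG00000018808) encodes vasoactive intestinal peptide. Its dopamine-gate value came from few nuclei, at 0, 252, 0 and 22 CPM. In GABA neurons it stood at 6.68, 7.62, 4.25 and 17.1 CPM, and in glutamate neurons at 11.3, 8.92, 10.9 and 5.02 CPM. Only female 2 of the dopamine gate stood apart, with 200 UMIs in 4 of 81 nuclei, up to 81 in a nucleus. The dopamine minus GABA difference was 2.72 ± 0.64 (log2, edgeR adjusted p = 0.00130) and turned to -0.21 without female 2 (edgeR adjusted p = 0.867). Dopamine minus glutamate, at 2.33 ± 0.59 (edgeR adjusted p = 0.00336), turned to -0.35 in the same way (edgeR adjusted p = 0.767). DESeq2 made neither call (adjusted p of 0.463 and 0.614). A Vip UMI was found in 1.77% of dopamine, 1.97% of GABA and 2.38% of glutamate nuclei, against 0.259% of oligodendrocytes (1.28%, 1.01%, 1.21% and 0.185% at 2000 UMIs). Of all Vip UMIs, 71.1% lay in no gate, where a nucleus held up to 138. In the glutamate gate Vip was at 0 in 161 C1ql1 nuclei and at 48.8, 13.6, 23.5 and 8.72 CPM in Lmx1a nuclei, at least 10.0-fold higher in all and 4.97-fold without female 1. That call (edgeR adjusted p = 0.00351) was lost without female 1 (edgeR adjusted p = 0.0575). The C1ql1 minus Sim1 call (edgeR adjusted p = 0.0475) was lost in 8 of 12 alternatives. These were leaving out female 1, female 2 or male 2 (edgeR adjusted p of 0.138, 0.201 and 0.0731), DESeq2, doublet calls kept, gates at 1 UMI, gates at 3 UMIs and no library block.

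Many nuclei held UMIs of more than 1 member. The shares that would follow from the detection of each member alone were not computed. At least 1 of the 10 was detected in 91.6% of dopamine, 94.2% of Slc26a7/Gad2, 49.4% of GABA and 66.1% of glutamate nuclei, and in 6.15% of oligodendrocytes. At least 2 were detected in 35.9%, 72.1%, 17.7%, 29.7% and 0.237%. In the Slc26a7/Gad2 gate, Cck was found in 76, Crhbp in 65 and both in 62 of the 86 nuclei. Crhbp was present in 88.0%, 72.2%, 90.0% and 78.3% of the nuclei with Cck. Only 10 nuclei lacked Cck, 3 of them with Crhbp. At 2000 UMIs Crhbp was found in 42.7% ± 7.98 of nuclei with Cck and 22.7% ± 5.61 of nuclei without (SD over 4 libraries). Thinning lowered the mean share with Cck from 88.9% to 58.7%. The thinned nuclei without Cck thus included many whose Cck UMIs were lost in the draw. In dopamine neurons, Nts and Crhbp also lay mostly in nuclei with Cck. Of 38 nuclei with Nts, 36 had Cck, and of 49 with Crhbp, 47 had it, against 258 of all 323. The gate includes 17 nuclei that also passed the Slc26a7/Gad2 gate, where Cck and Crhbp are common. Among the 288 dopamine nuclei that passed no other gate, a count added after the data had been seen, 33 of 35 with Nts and 33 of 35 with Crhbp had Cck, against 228 of all 288. The 39 dopamine nuclei with Grp held neither Nts nor Crhbp, which allows each in a share of up to 7.69% of such nuclei.

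**Figure D4:**
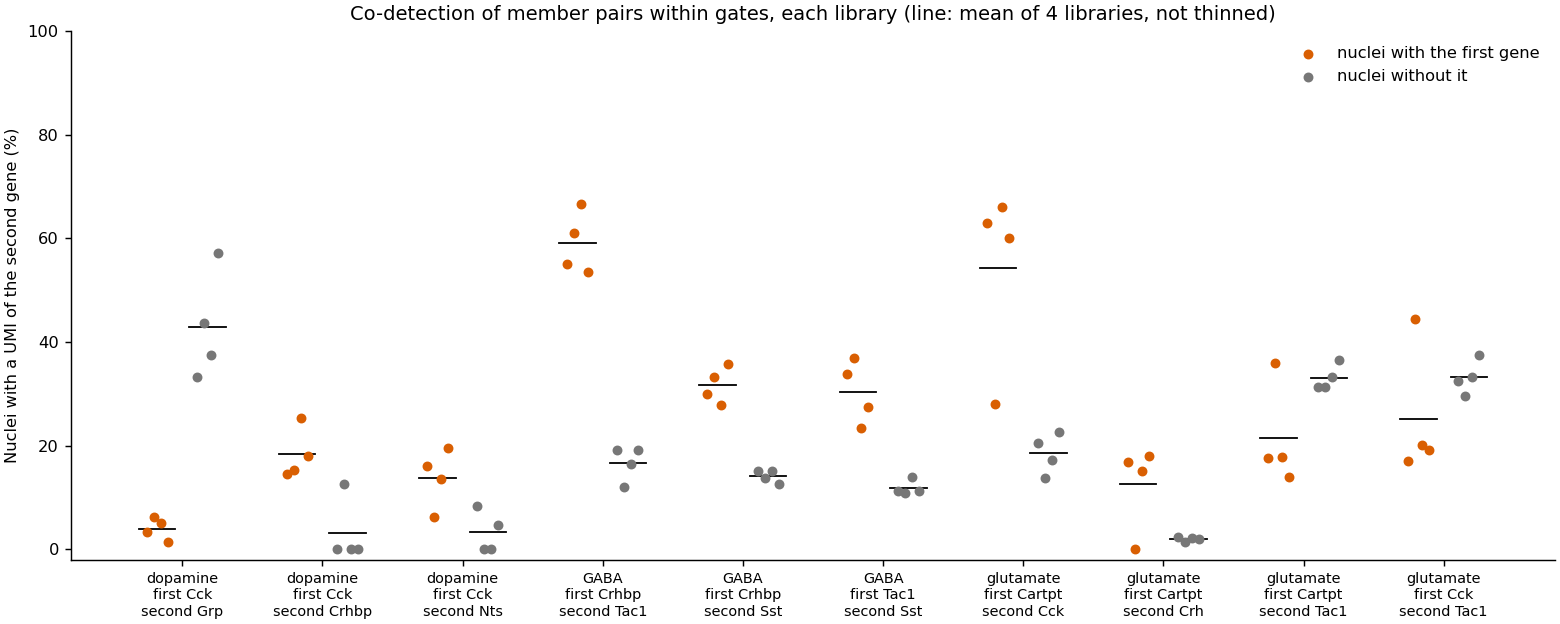
Share of nuclei with a UMI of a second member (percent, not thinned) among nuclei with and without a first member, for 10 pairs, with 1 point per library and a line at the mean. Grp in dopamine nuclei lies at 1.39% to 6.15% with Cck and at 33.3% to 57.1% without, and Tac1 in GABA nuclei lies at 53.6% to 66.7% with Crhbp and at 11.9% to 19.1% without.

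In GABA neurons, Crhbp, Tac1 and Sst shared nuclei. Tac1 was present in 55.0%, 61.1%, 66.7% and 53.6% of Crhbp nuclei, and in 19.1%, 11.9%, 16.4% and 19.1% of the others. The ranges did not overlap, and at 2000 UMIs the mean shares were 52.6% ± 9.32 and 11.1% ± 2.59. Sst was present in 32.1% of the 84 Crhbp nuclei and in 14.1% of the 1083 without. Sst was also more frequent among Tac1 nuclei, in 33.9%, 37.0%, 23.3% and 27.4% against 11.3%, 10.9%, 13.9% and 11.3% of nuclei without Tac1. Nts kept apart from Crhbp, being present in 3 of 84 nuclei with it and 14.4% of those without.

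In glutamate neurons, Cartpt, Crh and Cck shared nuclei, and Tac1 was less frequent among them. Cck was present in 63.0%, 28.0%, 66.1% and 60.0% of Cartpt nuclei, and in 20.5%, 13.7%, 17.3% and 22.6% of nuclei without Cartpt. Crh was present in 16.8%, 0%, 15.2% and 18% of Cartpt nuclei and in 2.39%, 1.42%, 2.20% and 1.99% of the rest. Female 2, with 25 Cartpt nuclei, stood apart in both pairs. Seen from Crh, 55 of its 80 nuclei also had Cartpt. Tac1 was present in 17.6%, 36.0%, 17.9% and 14.0% of Cartpt nuclei and in 31.4%, 31.3%, 33.3% and 36.5% of nuclei without. Here too female 2 went the other way. The co-detection shares are descriptions with no test. Nuclei with Cartpt had a median of 8786 UMIs and those without 8145.

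Between the sexes, 0 members passed edgeR's test in any gate, with 2 libraries on each side. Of the members past the filter, 5 were tested in the dopamine gate (0.0874% of all genes passed), 2 in the Slc26a7/Gad2 gate (0.147%), 8 in GABA neurons (0.0931%) and 8 in glutamate neurons (0.0553%). At an unadjusted p under 0.05 there were 1, 0, 3 and 2 members. DESeq2 called 0, 0, 1 and 0. The 1 was Gal in GABA neurons, at -2.37 ± 0.41 for female minus male (log2, edgeR adjusted p = 0.0844, DESeq2 adjusted p = 0.0310). Of the 97 Gal UMIs of male 1 in that gate, 74 lay in 1 nucleus, and without male 1 the difference was -1.63. The Isl1 subgate, which held 101 of the 149 Gal UMIs of the GABA gate, had 4, 2, 35 and 7 nuclei. The part of these nucleus numbers in the difference was not tested. Cartpt and Tac1 in GABA neurons stood at -2.04 ± 0.56 and -0.62 ± 0.22 (edgeR adjusted p of 0.679 and 0.716). In glutamate neurons Sst stood at 1.04 ± 0.24 and Nts at -0.80 ± 0.24 (edgeR adjusted p of 1.00 for both). The Vip difference in the dopamine gate, 3.61 ± 1.18 (edgeR adjusted p = 0.924), rested on female 2. The members' median difference was -0.41 in the dopamine gate, 0.17 in the Slc26a7/Gad2 gate, -0.46 in GABA neurons and -0.16 in glutamate neurons, against -0.01 to 0.01 over all genes. Cck in the dopamine gate stood at -0.01 ± 0.15 (edgeR adjusted p = 0.998).

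The machinery that makes and releases peptides was read from 16 genes, 14 of them tested. Between the dopamine and GABA gates 3 were higher and 7 lower in dopamine neurons, with a median of -0.24 (31.8% of all genes passed). Dopamine minus glutamate gave 2 higher and 6 lower (median -0.30; 27% of all genes). Dopamine minus Slc26a7/Gad2 gave 1 higher and 7 lower (median -0.04; 15.6%), and GABA minus glutamate gave 6 higher and 1 lower (median 0.18; 13.3%). Cadps2, a priming factor for dense-core vesicle release, was highest of the 4 gates in dopamine neurons, at 1844 to 2144 CPM, against 686 to 973 CPM in the Slc26a7/Gad2 gate, 816 to 1069 CPM in GABA and 131 to 270 CPM in glutamate neurons. It was higher in dopamine than in glutamate neurons by 3.44 ± 0.14 (log2, edgeR adjusted p = 2.39e-17). Chga, which encodes the vesicle protein chromogranin A, was lower in dopamine than in GABA neurons, at -1.47 ± 0.13 (edgeR adjusted p = 1.23e-10). In the Slc26a7/Gad2 gate the convertase gene Pcsk2 was higher than in GABA neurons by 0.97 ± 0.10 (edgeR adjusted p = 8.25e-09). Of the 14, 2 were higher and 3 lower in that gate than in GABA neurons (10.1% of all genes). In the Nts-rich Lum subgate 9 of 14 were higher and 1 lower than in the Gata3 subgate (15.8% of all genes passed). They included Cadps2, at 3262 to 4596 CPM against 229 to 622, and Pam, the peptide-amidating enzyme gene, at 2372 to 2487 CPM against 354 to 440. Their log2 differences of Gata3 minus Lum were -3.37 ± 0.21 (edgeR adjusted p = 2.69e-14) and -2.74 ± 0.19 (edgeR adjusted p = 7.83e-13). The 1 gene lower in Lum nuclei was Cadps, at 185 to 563 CPM against 1383 to 1732 CPM in Gata3 nuclei (2.04 ± 0.24, edgeR adjusted p = 5.79e-08).

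Of 27 further neuropeptide genes, 26 were found by name and 6 tested between gates. Penk, the enkephalin precursor gene, stood at 76.6 to 124 CPM in GABA and 30.0 to 151 CPM in glutamate neurons and at 0 to 5.03 CPM in dopamine neurons (dopamine minus GABA -5.89 ± 0.54, log2, edgeR adjusted p = 4.86e-10). Within the glutamate gate it stood at 168 to 395 CPM in Sim1 nuclei, against 8.13 to 21.3 CPM in Lmx1a nuclei (Lmx1a minus Sim1 -4.11 ± 0.33, edgeR adjusted p = 2.06e-10). Pnoc, the nociceptin precursor gene, was higher in GABA than in glutamate neurons by 2.03 ± 0.15 (edgeR adjusted p = 2.84e-11). Adcyap1, the gene of the peptide PACAP, was lower there, at -4.19 ± 0.18 (edgeR adjusted p = 1.41e-16). Nppc, which encodes C-type natriuretic peptide, stood at 43.2 to 72.1 CPM in dopamine neurons and 56.3 to 146 CPM in the Slc26a7/Gad2 gate, against 5.71 to 12.9 CPM in GABA and 9.39 to 15.8 CPM in glutamate neurons. Of the 6, 3 were higher and 2 lower for dopamine minus GABA (31.8% of all genes), and 2 higher and 3 lower for dopamine minus glutamate (27%).

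Of 19 receptor genes for the members, 17 were found and 7 tested. Tacr3, which encodes the neurokinin receptor NK3, was highest in dopamine neurons, at 177 to 282 CPM. It stood at 61.2 to 99.0 CPM in GABA neurons, 29.1 to 47.6 CPM in glutamate neurons and 0 to 15.6 CPM in the Slc26a7/Gad2 gate. Dopamine minus Slc26a7/Gad2 was 5.15 ± 0.37 (log2, edgeR adjusted p = 1.56e-11). Vipr2, a receptor gene for vasoactive intestinal peptide and PACAP, had its highest levels in the Slc26a7/Gad2 gate, at 21.7 to 98.0 CPM, against 4.89 to 15.1 CPM in dopamine neurons (-2.46 ± 0.45, edgeR adjusted p = 0.000188). Cckar, a cholecystokinin receptor gene, was low, at 4.89 to 13.5 CPM in dopamine and 1.08 to 2.26 CPM in glutamate neurons. It was higher in dopamine than in glutamate neurons by 2.22 ± 0.47 (edgeR adjusted p = 0.000466). The Slc26a7/Gad2 gate, at 0 to 21.7 CPM, was also higher than glutamate neurons, by 2.69 ± 0.72 (edgeR adjusted p = 0.0130). In the dopamine gate 2 of the 7 receptor genes were higher and 3 lower than in GABA neurons (31.8% of all genes), and 2 higher and 2 lower than in glutamate neurons (27%). By sex, 0 genes of these 3 lists passed in any gate.

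Genes with the most similar pattern were ranked by Pearson's r of log2(CPM + 1) over 37 gate and subgate sums, which share libraries and nuclei, among 10636 genes. For Cck the nearest were the locus AABR07064386.1 (r = 0.88), Drd2 (r = 0.87), the D2 dopamine receptor gene, and Ddc (r = 0.87), the gene of the enzyme that makes dopamine from its precursor. For Grp they were Slc39a4 (r = 0.84), a zinc transporter, and Kcnn3 (r = 0.80), a calcium-activated potassium channel. Nts was nearest Cpne5 (r = 0.81), Crhbp nearest Nnmt (r = 0.82), Gal nearest Cacna1s (r = 0.81) and Cartpt nearest Fut9 (r = 0.78). For Gal, the only Isl1 sum in the ranking was that of male 1, where 74 Gal UMIs lay in 1 nucleus. Tac1 was nearest Dach1 (r = 0.77), Crh nearest Gpr6 (r = 0.74) and Sst nearest Hdac11 (r = 0.71). Vip, whose level rested on few nuclei, was nearest Copg2 (r = 0.61).

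The gates left out part of the members' RNA. Of nuclei with at least 3 UMIs of a member, those in no gate numbered 279 of 766 for Cck, 303 of 725 for Tac1, 262 of 471 for Cartpt, 59 of 87 for Vip and 1 of 18 for Grp. The Cck nuclei in no gate had a median of 5731 UMIs against 9184 in the gates. Of these 279 nuclei, 105 had 1 UMI of Slc17a6 and none of Gad1, and 139 had none of Gad1, Gad2 and Slc17a6.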

How the data were processed

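Single-nucleus RNA-seq of 4 rat VTA libraries (2 female, 2 male, each from 3 pooled rats) was used as deposited, and the authors' files give unnormalized UMI counts for each barcode. Alignment and counting used Cell Ranger and the rat build rn6 per the submitters' processing notes, and the file headers name software version 3.0.2. No label or file header names the annotation or the cell filter. Nuclei with at least 200 genes and at most 5% mitochondrial UMIs were kept. Of the 21606 barcodes, 980 were removed as doublet calls (the highest Scrublet scores, 0.8% per 1000 barcodes, run in scanpy 1.11.5; the caller's own threshold marked 477), and 6 failed the filters. UMIs were summed per library and gate, with at least 10 nuclei per sum. Sums were tested with edgeR 4.0.16 (R 4.3.3; TMM, filterByExpr, quasi-likelihood test, library as a block between gates) and Benjamini-Hochberg adjustment over all genes tested, with a call at an adjusted p under 0.05. DESeq2 1.42.0 was an alternative, and the test scripts were tested on simulated data. Shares were thinned to 2000 UMIs as the expected share, leaving out shallower nuclei. A count of 0 was bounded by 3 counts, and Poisson intervals (95%) cover counting error only. The limits on shares after a count of 0 treat nuclei as independent and leave out variation between libraries. Other alternatives were DESeq2's size factors in edgeR, leaving out each library in turn, dropping the low-count filter, doublet calls kept, at least 500 genes and at most 1% mitochondrial UMIs, gates at 1 or 3 UMIs, nuclei in several gates left out, and no library block. All members are named. From each list and comparison at most the 3 called genes of largest change were eligible, and for each member the 3 most similar genes. The members and lists were chosen with earlier results of these data known.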

Additional observations from a re-analysis of the deposited data

Results flagged for a closer look

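In 14 of 75 groups of 4 libraries, the gap between the highest or lowest library and the next exceeded Dixon's 95% critical value. Its rate of about 1 in 20 holds for independent groups of normally distributed values. It does not hold here, because subgates lie within gates and a group with UMIs in 1 library only is always flagged. The 14 groups are therefore listed with no count expected by chance. Female 2 stood apart in 6 of them besides a single UMI of Sst in the Slc26a7/Gad2 gate (5.21 CPM). In the glutamate gate its Cck level of 53.0 CPM lay below the other libraries (111 to 113 CPM), and in the GABA gate its Sst level of 60.6 CPM lay below 84.8 to 88.8 CPM. Its Vip level in the dopamine gate, 252 CPM against 0 to 22 CPM, came from 4 nuclei with up to 81 UMIs. Its Tac1 level in the Slc26a7/Gad2 gate, 109 CPM against 0 to 15.1 CPM, came from 21 UMIs in 1 nucleus. In the Sim1 subgate, where it had 12 nuclei, it held Sst at 168 CPM against 0 to 24.2 CPM and Vip at 88.2 CPM against 0 to 8.78 CPM.

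Female 1 was high for Grp in the glutamate gate, at 6.18 CPM against 0.939 to 1.77 CPM, and in its C1ql1 subgate, at 11.3 CPM from 5 UMIs in 1 nucleus against 0 elsewhere. Male 2 was high in the Gata3 subgate for Tac1, at 110.1 CPM against 24.3 to 34.4 CPM, and for Cartpt, at 19.4 CPM from 3 UMIs against 0 to 2.16 CPM. Gal stood apart in the glutamate gate of male 1 at 2.00 CPM against 0 to 0.269 CPM. Single Gal UMIs gave 2.27 CPM in the C1ql1 subgate of female 1 and 0.871 CPM in the Lmx1a subgate of male 1, against 0 in the other libraries.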

How the results depend on the processing

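Of 36 member differences called between gates, 22 kept their call in every alternative, and the number called lay between 30 (DESeq2) and 46 (no filter on low counts). Between subgates 10 were called, against 1 with DESeq2, 21 with no filter and 4 to 11 with a library left out. The Gata3 minus Lum difference of Nts was the 1 kept in every alternative. Between sexes 0 were called, against 1 with DESeq2, 7 with no filter, 1 with gates at 3 UMIs and 1 to 7 with a library left out. Reversed directions were Sst in dopamine minus glutamate (0.21 with gates at 1 UMI) and Vip. With each library left out in turn, Vip ran from -0.21 to 3.45 for dopamine minus GABA, from -0.35 to 3.05 for dopamine minus glutamate and from -6.15 to 9.73 between sexes in the dopamine gate. The lowest value was in each case without female 2. The cause was not tested.

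Female and male libraries share the numbers 1 and 2, but the labels do not state a pairing. For each gene, the log CPM of female 1 and of male 1 was taken as a deviation from the mean of its own sex. Over genes, these deviations correlated at 0.0772 in the dopamine, 0.0209 in the Slc26a7/Gad2, 0.141 in the GABA and 0.255 in the glutamate gate. With the replicate number as a block, 7 members were called between sexes. Among them were Gal (-2.29) and Cartpt (-2.03) in GABA neurons and Sst (1.03) and Nts (-0.80) in glutamate neurons. Over all genes the block gave 11 sex calls against 8 in the dopamine gate, 7 against 7 in the Slc26a7/Gad2 gate, 19 against 11 in GABA and 137 against 7 in glutamate neurons. With no filter on low counts there were 24 in the Slc26a7/Gad2 gate and 103 in GABA neurons, and without female 1 there were 39 in the dopamine gate. Nuclei in several gates left out lowered all-gene calls from 1796 to 1144, 1162 to 746 and 1012 to 586 for the Slc26a7/Gad2 gate against dopamine, GABA and glutamate neurons. Without the library block GABA minus glutamate fell from 1534 to 967. Gates at 3 UMIs lowered Gata3 minus Lum from 1445 to 789. Without male 1 the glutamate subgates fell from 751 to 312, 972 to 481 and 631 to 295.

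Detection shares moved with depth. Thinned to 4000 UMIs they were 72.0% for Cck and 7.52% for Grp in dopamine, 12.2% for Sst and 1.94% for Gal in GABA, 24.7% for Tac1 in glutamate and 51.9% for Crhbp in Slc26a7/Gad2 nuclei. Not thinned they were 80.0%, 11.9%, 15.4%, 2.92%, 30.1% and 75.8% in that order, and 11.6% for Nts in dopamine, 21.4% for Cartpt and 4.64% for Crh in glutamate nuclei. Among nuclei with Cck, Grp in the dopamine gate stood at 2.12% and 3.96%, and Crhbp in the Slc26a7/Gad2 gate at 60.5% and 82.1%, thinned to 4000 UMIs and not thinned. Crh among glutamate nuclei with Cartpt stood at 12.5% not thinned. Genes with few UMIs, such as Grp, Crh, Gal and Vip, are limited by depth. A count of 0 in the 86 Slc26a7/Gad2 nuclei allows a share of up to 3.49% among such nuclei, counting error only.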
